A study of Mus musculus with 6 samples.

Results

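The genes described here are those of the T helper 2 program: the cytokine genes Il4, Il5 and Il13, the transcription factor genes Gata3, Maf and Nfil3, Zfpm1, which encodes a cofactor of GATA factors, and Il1rl1, which encodes the interleukin-33 receptor ST2. Members were every probe set whose platform gene symbol is 1 of these 8 names. That gave 8 probe sets of the 22626 on the array that are not controls, covering 7 of the 8 genes: Zfpm1 had 2, Il4, Il5, Il13, Gata3, Maf and Nfil3 had 1 each, and no probe set was matched to Il1rl1, which is not analysed here. The list was drawn up with the genotype comparison of these arrays already known, Il4 in particular. The differences between genotypes are therefore given for the members as a description, and counts past a threshold or intervals on 1 side of 0 support nothing about them.

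The cells were regulatory T cells (Treg), isolated with magnetic beads as CD4+CD25+ cells. The mice were either HDAC9-/-, and so without the class IIa histone deacetylase HDAC9 (3 samples), or wild type (3 samples), all of the C57BL/6 strain, and the labels give no treatment, age or allele beyond that. Each sample was hybridised to 1 array, and the series title places the comparison in a study of deacetylases that control Foxp3+ Treg. The samples are called independent. Whether each was 1 mouse or a pool is not stated, and all errors measure the spread between these samples only. The deletion is not described as limited to T cells, and bead separation leaves some other cells in the fraction.

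In T helper 2 cells, interleukin-4 acts through its receptor and the factor STAT6 to raise GATA3, which opens the cytokine genes. The factor c-MAF, encoded by Maf, acts on the Il4 promoter together with NFAT factors that respond to the T cell receptor, whereas GATA3 is needed above all for Il5 and Il13. Treg carry GATA3 too, where it supports their stability in inflamed tissue, but they normally make little interleukin-4, and Treg that gain T helper 2 cytokines are regarded as partly reprogrammed.

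Il4, Il13 and Il5 are neighbours on 1 chromosome, with Rad50 between Il13 and Il5. The 250 bases before each RefSeq gene start are printed as background (build GRCm38.p6, from RefSeq, 5′ to 3′ on the strand of the gene). The arrays measured no binding or chromatin at these sequences, and no link between the motifs and the array values was tested. Capitals mark matches on either strand to any of 4 motifs, which share no letters where they were found here. The GATA motif was searched as AGATAA. The Maf half-site was searched as TGCTGA. The core of NFAT sites was searched as GGAAAA. A palindrome of the kind Nfil3 binds was searched as TTANNTAA.
Il4, chr11:53618666-53618915, minus strand: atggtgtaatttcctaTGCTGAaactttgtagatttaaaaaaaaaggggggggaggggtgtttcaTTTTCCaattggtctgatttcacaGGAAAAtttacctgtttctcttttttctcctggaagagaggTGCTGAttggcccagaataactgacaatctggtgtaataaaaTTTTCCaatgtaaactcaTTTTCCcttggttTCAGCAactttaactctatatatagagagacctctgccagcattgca
Il13, chr11:53634703-53634952, minus strand: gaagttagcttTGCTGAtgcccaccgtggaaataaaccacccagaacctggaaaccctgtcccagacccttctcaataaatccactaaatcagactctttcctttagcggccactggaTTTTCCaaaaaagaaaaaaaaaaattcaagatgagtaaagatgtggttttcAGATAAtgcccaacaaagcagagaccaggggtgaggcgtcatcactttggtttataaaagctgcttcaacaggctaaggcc
Il5, chr11:53720544-53720793, plus strand: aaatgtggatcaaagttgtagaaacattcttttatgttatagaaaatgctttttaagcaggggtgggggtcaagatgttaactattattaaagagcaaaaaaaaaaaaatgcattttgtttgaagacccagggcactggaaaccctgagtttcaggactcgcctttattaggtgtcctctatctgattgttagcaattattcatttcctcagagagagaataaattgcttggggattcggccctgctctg
The Il4 window held 3 Maf half-sites, at 234 to 229, 120 to 115 and 47 to 42 bases before the start, and 4 NFAT cores. The Il13 window held 1 Maf half-site, 1 NFAT core and 1 GATA motif, the last at 81 to 76 bases before the start. The Il5 window held 0 matches to any of the 4. No match in a window of this length says only that these exact letters are not there. Shorter or variant forms of the motifs were not searched, so a window without a match may still hold such sites. Of 32851 RefSeq promoter windows of 250 bases, 16.1% held a Maf half-site, 20.4% an NFAT core, 9.99% the GATA motif and 5.43% the Nfil3 palindrome.

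The array values were log2 expression made with RMA, running from 2.42 to 14.32, and the median over all probe sets and arrays, 5.77, is used below only to say whether a probe set was dim. Arrays correlated pairwise at 0.990 to 0.997 across probe sets. Wild type replicate 3 stood apart, with a mean correlation of 0.991 to the others and the lowest median, 5.69. Foxp3, the defining factor of Treg, was bright throughout, with means of 10.34 ± 0.05 (wild type) and 10.37 ± 0.05 (HDAC9-/-; SD, n = 3). Read by their brightest probe sets, the other T cell and Treg markers overlapped too, apart from Il2ra. Il2ra encodes CD25 and was lower by -0.08 in HDAC9-/- arrays. The dimmer probe sets of Il2ra (1420691_at) and Cd4 (1427779_a_at) were also lower without overlap, by -0.19 and -0.38. Neither passed over all probe sets (limma, adjusted p = 0.557 and 0.496). Cd3e (11.69 to 11.91), Cd4 (9.75 to 9.97) and Ctla4 (11.11 to 11.45) were bright on all 6 arrays. The 1 probe set of Hdac9 was dim in all samples (wild type 3.50 to 4.10, HDAC9-/- 3.62 to 3.74), and it does not check the genotype labels, since the sources used here do not name the deleted part of the gene. Gapdh control probes for the 3′ end read above those for the 5′ end by 0.03 to 0.11 on the wild type arrays and by 0.15 to 0.28 on the HDAC9-/- arrays, without overlap. The same contrast for actin overlapped, at 0.33 to 0.46 for wild type and 0.42 to 0.60 for HDAC9-/- arrays. The Gapdh sign of RNA integrity or labelling thus moved with genotype, and its part in the results below was not tested.

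Il4 had lower signal in the CD4+CD25+ fraction of HDAC9-/- mice, and Nfil3 had higher signal. Gata3, Maf, Il5 and Il13 had values that overlapped between the genotypes, and the 2 Zfpm1 probe sets differed in sign. Of the 8 member probe sets 6 had a negative and 2 a positive difference, against 47.8% negative and 52.2% positive over all probe sets. Their differences ran from -0.80 to 0.40 with a median of -0.09, where the median over all probe sets was 0.01. None of the 8 passed an adjusted p of 0.05 (limma, Benjamini-Hochberg over all probe sets), a threshold passed by 0.0133% of probe sets, and 2 of the 8, Il4 and Nfil3, had an unadjusted p below 0.05, as did 8.78% of all. For 3 of the 8 the genotypes were fully separate, which held for 17.0% of all probe sets: 2 lower (6.04% of all) and 1 higher (11.0% of all). Since the members were picked with this comparison known, nothing is read from these counts.

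**Figure D1:**
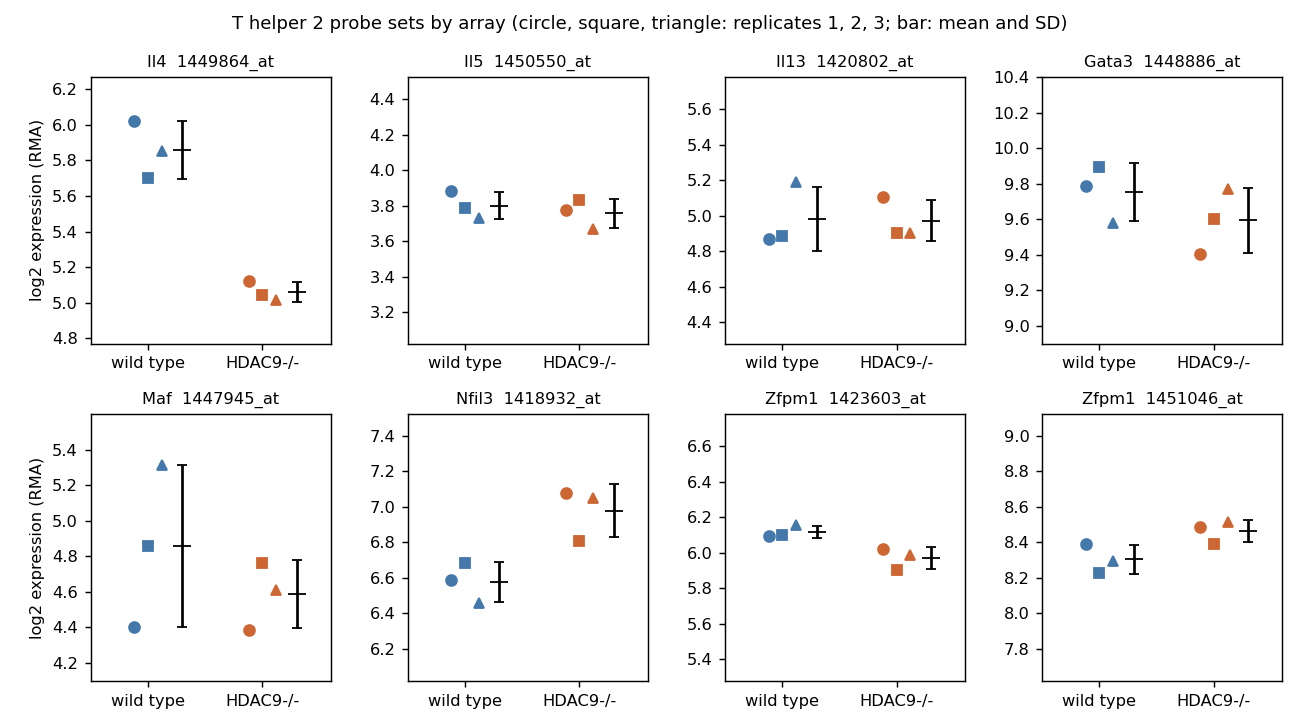
Log2 expression (y axis) of the 8 member probe sets in the 3 wild type and 3 HDAC9-/- arrays, 1 panel per probe set, each y axis spanning the same width in log2 units. Circles, squares and triangles are replicates 1, 2 and 3, and black bars are the mean and SD. Il4 lies at 5.70 to 6.02 (wild type) and at 5.01 to 5.12 (HDAC9-/-), while Gata3, Il5, Il13 and Maf overlap.

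Il4 encodes interleukin-4, the cytokine that both marks and drives T helper 2 cells. Its probe set 1449864_at gave 6.02, 5.70 and 5.85 on the wild type arrays (replicates 1, 2 and 3, the order used throughout) and 5.12, 5.04 and 5.01 on the HDAC9-/- arrays. Every HDAC9-/- array was below every wild type array, with a gap of 0.58 between the genotypes against a range of 0.32 within wild type and 0.11 within HDAC9-/-. The means were 5.86 ± 0.16 and 5.06 ± 0.06 (SD, n = 3), so the log2 difference was -0.80 (standard error 0.10) with a 95% confidence interval from -1.03 to -0.57, not adjusted over the array. On the linear scale the HDAC9-/- signal was 1.74-fold lower, with an interval of 1.49-fold to 2.04-fold. Of the 22626 probe sets 23 had a more negative difference and 58 a larger difference in either direction. Leaving out wild type replicate 1, which had the highest Il4 value, gave -0.72, and leaving out replicate 3 of that genotype gave -0.80.

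The mean of Il4 over the 6 arrays, 5.46, was below the array median, and RMA compresses differences of dim probe sets, so the fold may be understated. Il4 was also listed with its difference known, which favours a large one, so the fold may equally be overstated. As for the other dim members, nothing here shows that the Il4 signal was above background, and the interval covers only the spread between arrays. In a bulk sample, fewer Il4-expressing cells and less Il4 RNA per cell cannot be told apart. Several other cell types that a CD4+CD25+ fraction may hold make interleukin-4, and their markers were read for that reason. Basophil and mast cell markers had lower values in HDAC9-/- arrays for 3 of 6 genes, and their summed level overlapped (wild type 33.09 to 34.44, HDAC9-/- 33.17 to 34.45). The summed level of the 6 follicular helper T cell markers also overlapped, at 40.31 to 41.76 and 40.73 to 41.40. Of the 4 measured markers of natural killer T and natural killer cells, 2 were lower and 2 higher, with sums of 27.83 to 28.91 and 27.75 to 28.55. Eosinophil markers, 3 of 4 of them higher, summed to 16.06 to 16.82 (wild type) and 16.36 to 17.53 (HDAC9-/-). Of these, Prg3 was dim and higher by 0.20 without overlap (limma, adjusted p = 0.549), and Prg2 was higher by 0.45 with overlap. Markers of group 2 innate lymphoid cells summed to 33.24 to 34.85 and 33.45 to 34.02. Markers of activated conventional T cells summed to 26.20 to 27.21 and 25.71 to 26.39, those of CD8 T cells to 13.37 to 13.98 and 13.73 to 15.69, and those of B cells to 14.83 to 15.72 and 14.46 to 15.99. All of these sums, taken over the log2 values of each gene's brightest probe set, overlapped between the genotypes. Such sums count dim and bright genes alike and do not measure how much of a minor cell type was present. Myeloid markers, some of which did not overlap, are given below with Nfil3. Ifng, which encodes interferon-gamma and was read among the activated T cell markers, covered 7.20 to 7.87 (wild type) and 6.95 to 7.27 (HDAC9-/-). Its difference of -0.56, with overlap, did not pass over all probe sets (limma, adjusted p = 0.530). In the same list Cd40lg differed by -0.14, Tnf by 0.04 and Il2 by 0.02, all with overlap. Zbtb16, the defining factor of natural killer T cells, read 6.04, 5.87 and 5.88 in wild type arrays (probe set 1419874_x_at). It read 5.52, 5.52 and 5.71 in HDAC9-/- arrays, so its genotypes did not overlap. Its difference was -0.34 in that probe set and -0.28 in 1427638_at, where the genotypes overlapped. Neither passed over all probe sets (limma, adjusted p = 0.433 and 0.557), and both had means below the array median. The other markers of natural killer T and natural killer cells overlapped, with Klrd1 at 0.23, Ncr1 at 0.10 and Klrk1 at -0.03. The part of these cells, or of activated T cells, in the Il4 difference was not tested.

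Il13 and Il5, the effector cytokines of mucus production and of eosinophil growth, gave no separation of the genotypes. Il13 (1420802_at) read 4.87, 4.89 and 5.19 in wild type and 5.11, 4.91 and 4.91 in HDAC9-/- replicates. The highest values were those of wild type replicate 3 and HDAC9-/- replicate 1, and the groups overlapped. Its difference was -0.01 with an interval from -0.28 to 0.26, and it turned to 0.09 without wild type replicate 3. Il5 (1450550_at) read 3.88, 3.79 and 3.73 in wild type and 3.77, 3.83 and 3.67 in HDAC9-/- replicates, a difference of -0.04 with an interval from -0.23 to 0.14. Both lay below the array median on average, at 4.98 and 3.78, and nothing here shows that they were above background, so the intervals say little about genes that may have been off.

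The genes on either side of Il4 had smaller differences, and their contrast with Il4 was not tested. In chromosomal order the measured genes were Uqcrq, Gdf9, Septin8, Kif3a, Il4, Il13, Rad50, Il5, Irf1, Slc22a5 and Slc22a4, each read by its brightest probe set. Without Il4, the 10 differences ran from -0.10 (Septin8) to 0.17 (Slc22a5), and 8 of the 10 overlapped between the genotypes. The other 2 were separate, as were 17.0% of all probe sets, so this count is near the background. Gdf9, Septin8, Kif3a, Il13, Il5 and Slc22a4 had means below the array median. Nothing here shows that these genes were above background, so their small differences may come from absent signal. Kif3a, a kinesin motor subunit gene next to Il4, covered 5.03 to 5.13 (wild type) and 4.82 to 5.06 (HDAC9-/-), a difference of -0.09. Rad50, a DNA repair gene whose introns hold the locus control region of the cytokine genes, read 7.73 to 7.83 and 7.69 to 7.84, a difference of -0.04. Slc22a5, a carnitine transporter gene, and Uqcrq, a respiratory chain subunit gene, were the 2 that did not overlap. Both were higher, by 0.17 and 0.16, without passing (limma, adjusted p = 0.553 and 0.580). The dimmer probe sets of Uqcrq overlapped, at -0.31 (1437134_at), -0.26 (1427880_at) and 0.02 (1452613_at), so its direction depends on the probe set.

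**Figure D2:**
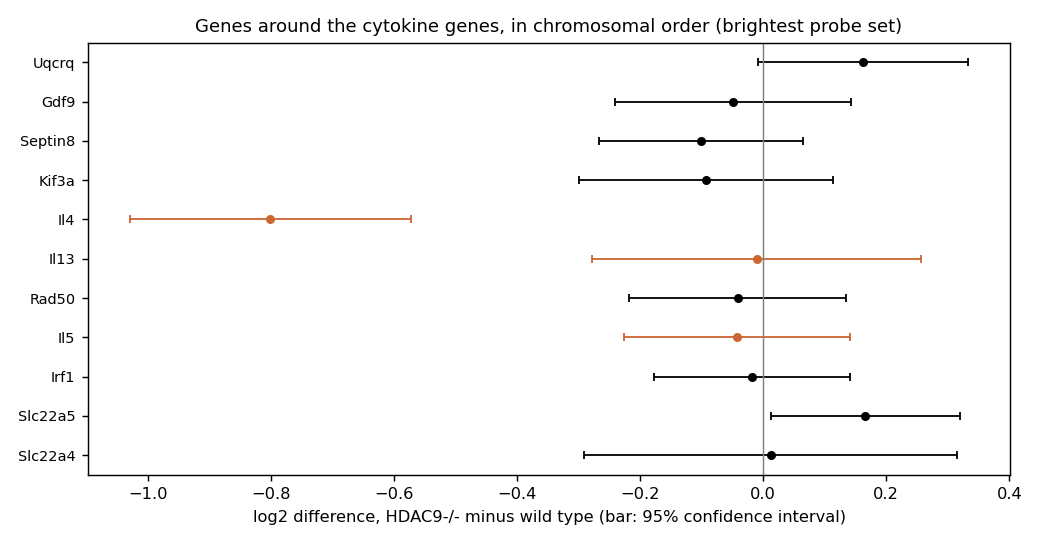
Log2 difference between HDAC9-/- and wild type (x axis) for 11 genes around the T helper 2 cytokine genes, listed from top to bottom in chromosomal order, with 95% confidence intervals from limma that are not adjusted over the array. Orange points are Il4, Il13 and Il5. Il4 lies at -0.80 and the others between -0.10 and 0.17.

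Gata3, the master factor of T helper 2 cells, was bright in both genotypes and overlapped. Its probe set 1448886_at read 9.79, 9.90 and 9.58 in wild type and 9.41, 9.60 and 9.77 in HDAC9-/- replicates. The lowest array was HDAC9-/- replicate 1 and the highest wild type replicate 2, with HDAC9-/- replicate 3 inside the wild type range. The difference was -0.16 (standard error 0.12), and its interval from -0.45 to 0.13 holds both no change and a drop of the size of 0.45. Without HDAC9-/- replicate 1 it was -0.07 and without HDAC9-/- replicate 3 it was -0.25.

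Maf was the member with the widest spread. Its 1 probe set, 1447945_at, was dim and read 4.40, 4.86 and 5.31 in wild type and 4.38, 4.76 and 4.61 in HDAC9-/- replicates. The wild type arrays alone covered a range of 0.91, and 3.76% of all probe sets had a larger SD in wild type. Wild type replicate 1, the highest for Il4, was the lowest wild type array for Maf. The difference of -0.27 had an interval from -0.81 to 0.27 and became -0.04 when wild type replicate 3 was left out and -0.50 when replicate 1 of that genotype was. Its size thus depended on which wild type arrays were counted.

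Nfil3 encodes a basic leucine zipper factor, also called E4BP4, that shapes cytokine production by T helper cells. Its probe set 1418932_at read 6.59, 6.68 and 6.46 in wild type and 7.08, 6.81 and 7.05 in HDAC9-/- replicates. Every HDAC9-/- array was above every wild type array, with a gap of 0.12. The means were 6.58 ± 0.11 and 6.98 ± 0.15 (SD, n = 3), a difference of 0.40 (standard error 0.10) and an interval from 0.16 to 0.64, or 1.32-fold. There were 325 probe sets with a more positive difference. It ran from 0.34 without wild type replicate 3 to 0.49 without HDAC9-/- replicate 2. Nfil3 is also active in myeloid and natural killer cells, and the 6 myeloid markers read here all had positive differences, with summed levels of 44.98 to 48.42 (wild type) and 48.42 to 51.89 (HDAC9-/-). Among them S100a8 and S100a9, the calprotectin genes of neutrophils and monocytes, were higher by 0.96 and 1.01 (limma, adjusted p = 0.454 and 0.445). Their genotypes did not overlap, with gaps of 0.48 and 0.50, while the other myeloid markers overlapped. Of the 6 myeloid markers, 2 had a mean below the array median. The part of these cells in the Nfil3 difference was not tested.

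Zfpm1 encodes FOG-1, a zinc finger protein that binds GATA factors and can hold back GATA3. Its 2 probe sets had opposite signs. The dimmer one, 1423603_at, read 6.09, 6.10 and 6.15 in wild type and 6.02, 5.90 and 5.99 in HDAC9-/- replicates, all lower, with a gap of 0.07 and a difference of -0.14 (interval -0.30 to 0.02). The brighter one, 1451046_at, read 8.39, 8.23 and 8.29 in wild type and 8.49, 8.39 and 8.51 in HDAC9-/- replicates, a difference of 0.16 (interval -0.02 to 0.34). In 8 of the 9 pairs of a wild type and an HDAC9-/- array the HDAC9-/- value was the higher, and wild type replicate 1 and HDAC9-/- replicate 2 were all but equal. Neither difference exceeded 0.2 in size, and the direction of Zfpm1 depends on the probe set.

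**Figure D3:**
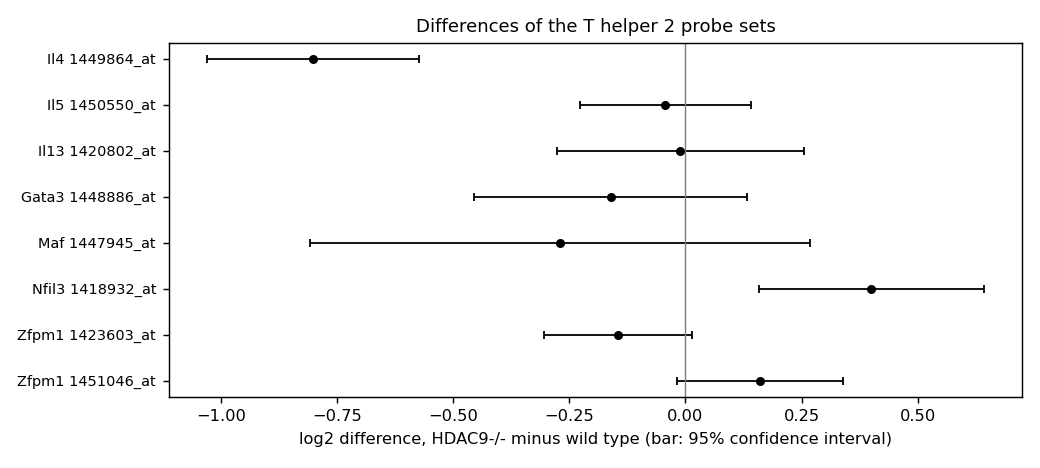
Log2 difference between HDAC9-/- and wild type (x axis) for the 8 member probe sets (y axis), with 95% confidence intervals from limma that are not adjusted over the array. Il4 at -0.80 and Nfil3 at 0.40 have intervals on 1 side of 0, Maf at -0.27 has the widest interval, and the 2 Zfpm1 probe sets lie on opposite sides.

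Around these genes, a wider set of T helper 2 genes was taken by role, each gene read by its brightest probe set. Of 60 listed genes 57 were measured, and 0 passed over all probe sets in either direction (limma, adjusted p below 0.05), while 6 had an unadjusted p below 0.05, as did 8.78% of all probe sets. The 57 had 38 negative and 19 positive differences with a median of -0.04, against 47.8% negative and 52.2% positive over all probe sets. Genotypes were fully separate for 10 of them, 5 with lower (6.04% of all probe sets) and 5 with higher signal (11.0% of all). No gene of the 57 passed in any of the 13 alternative analyses either.

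The receptors and signalling genes had 8 negative and 4 positive differences among 12 measured, with a median of -0.03. Il4ra, the receptor chain for interleukin-4, covered 8.89 to 8.90 (wild type) and 8.83 to 8.96 (HDAC9-/-) and differed by less than 0.01. Stat6, the factor the receptor activates, read 10.54, 10.46 and 10.50 in wild type and 10.39, 10.40 and 10.32 in HDAC9-/- replicates, lower in every array, a difference of -0.13 (adjusted p = 0.609, limma). Its other probe set, 1421708_a_at, was also lower without overlap, by -0.23. Tnfrsf4, the costimulatory receptor OX40, was higher by 0.14 without passing (adjusted p = 0.609, limma).

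Factors that favour the T helper 2 fate had 11 negative and 3 positive differences among 14 measured, with a median of -0.07. Ets1 was lower by -0.22 in its brightest probe set (limma, adjusted p = 0.609) and by -0.06 to -0.09 in its 3 others. Pparg, a nuclear receptor gene, was dim and had a difference of 0.21 with overlapping genotypes. Junb and Batf, partners in the AP-1 complexes that open cytokine genes, differed by -0.08 and -0.05, and Nfatc1 by -0.02.

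Genes that restrain the T helper 2 fate included the most negative differences of the set. Of 10 measured, 7 had negative and 3 positive differences. Runx1 counts as positive through its brightest probe set, at 0.11 with overlap. Its probe set 1422865_at was lower without overlap, by -0.35 (limma, adjusted p = 0.442), and its others ran from -0.10 to 0.08 with overlap. Tbx21, which encodes T-bet, the T helper 1 factor that opposes GATA3, read 8.50, 8.13 and 8.25 in wild type and 7.74, 7.83 and 7.71 in HDAC9-/- replicates, a difference of -0.54 (limma, adjusted p = 0.398). Socs5, a suppressor of cytokine signalling, read 6.83, 6.65 and 6.40 in wild type and 6.31, 6.12 and 6.20 in HDAC9-/- replicates, a difference of -0.42 (limma, adjusted p = 0.454), and its other probe set differed by -0.15 with overlap. Both genes were lower in every HDAC9-/- array, as Il4 was.

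The effector and surface genes had 7 negative and 6 positive differences among 13 measured, and 7 of the 13 were below the array median. Ecm1, a secreted protein gene known for the exit of T helper 2 cells from lymph nodes, read 9.72, 9.64 and 9.53 in wild type and 9.36, 9.28 and 9.38 in HDAC9-/- replicates, a difference of -0.29 (limma, adjusted p = 0.441). Ccr4, a chemokine receptor gene of T helper 2 cells and Treg, was dim and higher by 0.24 (limma, adjusted p = 0.539). Il10 had the most positive difference of the set, 0.43, but its 3 wild type arrays spread over 5.68 to 6.52 and overlapped the HDAC9-/- arrays at 6.24 to 6.70.

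**Figure D4:**
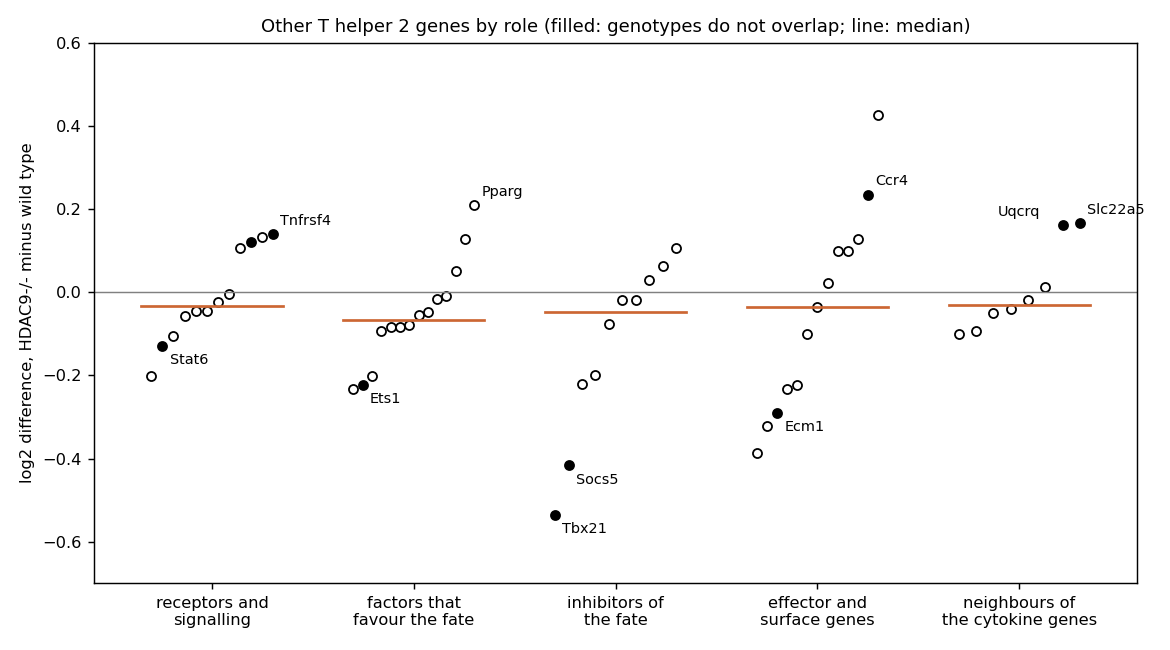
Log2 difference between HDAC9-/- and wild type (y axis) for the 57 other T helper 2 genes, grouped by role (x axis), 1 point per gene. Filled points are genes whose genotypes do not overlap, orange lines are the median of each group, and the genes with the smallest unadjusted p in each group are named. The medians lie between -0.07 and -0.03, with Tbx21 at -0.54 and Socs5 at -0.42 as the lowest points.

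Il4 was also set against all other probe sets by its pattern over the 6 arrays. Likeness was the Pearson correlation with Il4 among the 1881 probe sets with 1 gene symbol, a mean at or above the array median and a range of at least 0.5. The 6 arrays fall by genotype, so a high value mostly reflects a shared genotype difference and is given as a description. There were 6 probe sets with a correlation above 0.95 and 19 below -0.95. The 5 highest were Sh3kbp1, an adaptor of receptor endocytosis (0.987), the mitochondrial chaperone gene Dnaja3 (0.974), Tbx21 (0.973), Sytl1, a gene of vesicle trafficking (0.962), and the interferon-inducible GTPase gene Irgm2 (0.962). Their differences were -0.39, -0.38, -0.54, -0.50 and -0.54. Within wild type, Tbx21, Sh3kbp1, Dnaja3 and Sytl1 had replicate 1 highest and replicate 2 lowest, as Il4 did, whereas Irgm2 did not. Choosing genes by this correlation favours such an order. Within HDAC9-/- the highest array was replicate 1 for Il4 and replicate 2 for Tbx21. The 3 lowest correlations were those of the fatty acid binding protein gene Fabp5 (-0.989), the mitochondrial carrier gene Mtch2 (-0.988) and the chloride channel gene Clic4 (-0.982), which were higher by 0.49, 0.45 and 0.51. None of these 8 passed over all probe sets (limma, adjusted p of 0.307 to 0.398), and all 8 had an unadjusted p below 0.05, as the way they were chosen favours.

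**Figure D5:**
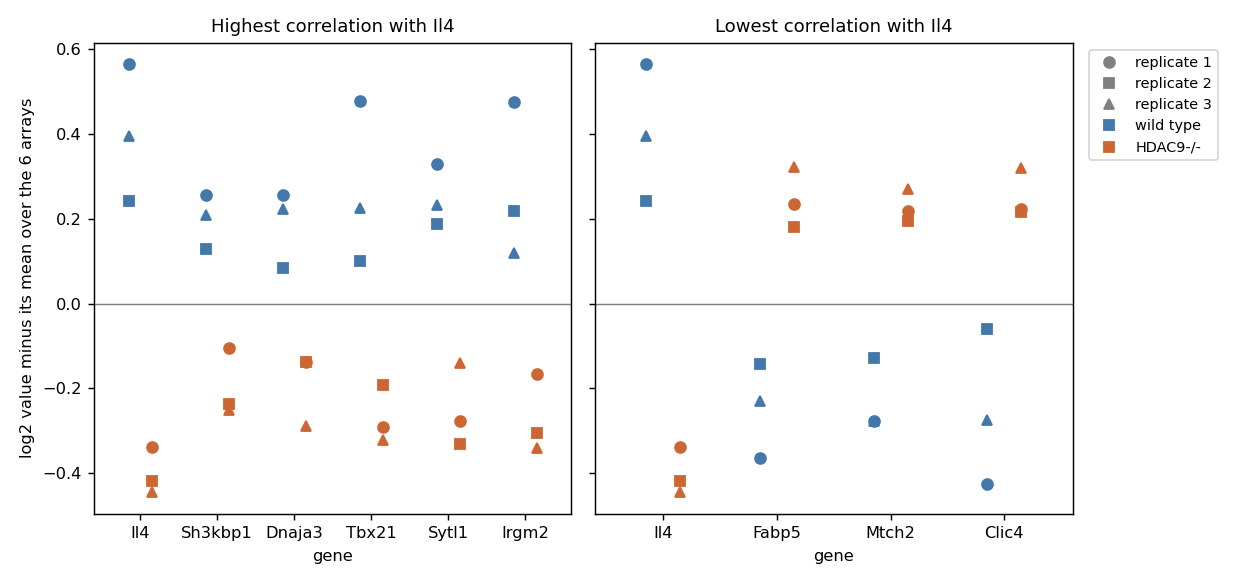
Log2 value minus the mean over the 6 arrays (y axis) for Il4 and the 5 genes with the highest correlation with it (left) and for Il4 and the 3 genes with the lowest (right). Blue is wild type and orange HDAC9-/-, and circles, squares and triangles are replicates 1, 2 and 3. Each gene on the left lies above its mean in all wild type arrays, and each gene on the right below it apart from Il4.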

How the data were processed

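Biotin-labelled RNA of 3 wild type and 3 HDAC9-/- samples was measured on 1 array each, and precision is limited by having only 6 arrays. The deposited table holds log2 expression values per probe set that the authors made with RMA, per the submitters' processing notes, of unstated version and settings. Of 22690 probe sets, 64 controls were left out. Platform symbols were updated through the Entrez identifier for 20351 of the 20380 probe sets with 1 symbol, with a gene table of assembly GRCm38.p6 that also gave gene order.

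Differences are HDAC9-/- minus wild type, fitted on all 22626 probe sets with limma 3.58.1 in R 4.3.3 (lmFit, eBayes, genotype alone), with Benjamini-Hochberg adjustment; the fit was tested on simulated data. The members, gene lists and markers were chosen with earlier results of these data known. Named are all members, Hdac9 and Foxp3, and per role the 2 other genes with the smallest unadjusted p. By likeness to Il4, the 5 highest and 3 lowest correlations are named too. Il4ra, Junb, Batf, Nfatc1, Il10, Runx1, the genes around Il4 and single marker genes (such as Zbtb16 and S100a9) were added after their values were seen. Alternatives were quantile normalization again, aligned array medians, a trended robust prior, a block for the replicate number, array weights, no dim probe sets, 1 probe set per gene, and each array left out. Plots used matplotlib 3.10.9 (Python 3.11.15). Titles number the replicates 1 to 3 in both genotypes without saying what a number stands for; same-numbered arrays deviated from their group means with correlations of 0.04, 0.10 and -0.25, so they were not treated as pairs.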

Additional observations from a re-analysis of the deposited data

How the results depend on the processing

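The Il4 difference kept its direction in all 12 alternatives that could be computed, at -0.88 to -0.72 with 1 array left out and -0.83 to -0.80 otherwise; it has no value with dim probe sets dropped, since Il4 is one of them. The Nfil3 difference stayed between 0.32 and 0.49 in 13 alternatives. Il13 ran from -0.08 to 0.09 and Il5 from -0.08 to 0.00 with 1 array left out, and Il13 was 0.05 with array weights. No member and none of the 57 other genes passed in any of the 13 alternatives. The count of members with a negative difference was 6, with 4 to 6 when 1 array was left out and 2 with dim probe sets dropped, which keeps 4 members; the count with a positive difference was 2, with 2 to 4 when 1 array was left out. The median of the members was -0.11 to -0.06 with 1 array left out and turned to 0.01 with dim probe sets dropped. Over the array the count of called probe sets was 3, 0 to 6 with 1 array left out, 15 with the trended robust prior, 6 with array weights and 1 with 1 probe set per gene. With a replicate block it was 0, and the Il4 difference was -0.80 with a standard error of 0.08; the block changed no call of a member. Aligning array medians moved the median of all differences by -0.03. With 3 arrays a group and Il4, Il5, Il13 and Maf below the array median, small differences of these genes may have been missed. No limit of detection is given here.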
